A study of Homo sapiens with 9 samples.

Results

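Kasumi-1 cells in which the AML1-ETO fusion (AE, also written RUNX1-RUNX1T1) was knocked down were compared directly with Kasumi-1 cells in which LYL1 was knocked down. Kasumi-1 is an established line of human acute myeloid leukaemia with the t(8;21) translocation, from which the fusion is made. The comparison takes the 3 AE knockdown libraries (replicates 1, 2 and 3) and the 3 LYL1 knockdown libraries (538, 540 and 542), chosen by their labels, which are 6 of the 9 libraries of the study. The other 3 libraries carry a control shRNA and stay out of the fit. Their values are given only as a background. All 9 cultures received an shRNA lentivirus for 48 h and then puromycin at 1 µg/mL for a further 48 h, and RNA was extracted on day 4. Every library thus comes from 1 cell line that was transduced and drug-selected, the controls included. Whether the 3 AE numbers stand for different shRNAs or for repeats is not stated in the labels, and the same holds for the 3 LYL1 numbers. Nor is it stated that libraries of 1 group were cultured separately. The p-values thus cover only the spread among these samples, which may be technical.

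AE joins the DNA-binding domain of the transcription factor RUNX1 (AML1) to nearly all of the corepressor RUNX1T1 (ETO). In leukaemic cells it works in a multiprotein complex with haematopoietic transcription factors, among them the E proteins TCF3, TCF4 and TCF12, the basic helix-loop-helix factor LYL1, and the adaptors LMO2 and LDB1. AE is known both for holding down genes of myeloid differentiation and for raising others, and the study's title concerns LYL1 in the assembly of this complex and in gene activation through the arginine methyltransferase CARM1. The direct comparison asks which genes stand at different levels when the fusion or this partner is lost.

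The targeted genes were read first, in CPM, read counts scaled by library total and by TMM, a between-library factor. RUNX1T1, whose reads come from the fusion as well as from the normal gene, stood at 113, 137 and 86.5 CPM in AE knockdown replicates 1, 2 and 3. It stood at 184, 201 and 261 CPM in LYL1 knockdown libraries 538, 540 and 542, and at 218, 225 and 213 CPM in the controls. Every AE knockdown library lay below every LYL1 knockdown library, and the AE libraries held 39.6% to 62.9% of the control mean. The log2 fold change, AE minus LYL1 knockdown, was -0.94 (SE 0.22, edgeR quasi-likelihood test with Benjamini-Hochberg adjustment, adjusted p = 0.0427). RUNX1, which supplies the other end of the fusion and is also read from its normal copy, stood at 240, 234 and 196 CPM with AE knockdown against 388, 357 and 534 CPM with LYL1 knockdown. The difference was -0.93 on the log2 scale (SE 0.20, edgeR adjusted p = 0.0366).

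LYL1 itself went the other way. It stood at 261, 201 and 169 CPM with AE knockdown, at 80.8, 98.5 and 43.8 CPM with LYL1 knockdown and at 174, 174 and 144 CPM in the controls. The LYL1 knockdown libraries held 26.7% to 60.0% of the control mean, and AE knockdown replicates 1 and 2 lay above all 3 controls. The difference on the log2 scale was 1.50 (SE 0.30, edgeR adjusted p = 0.0321). With any 1 library left out the log2 fold changes were -1.11 to -0.78 for RUNX1T1 and 1.23 to 1.75 for LYL1. The RUNX1T1 call was lost without AE replicate 1 or 3 or any 1 LYL1 library (adjusted p up to 0.155), and the LYL1 call without AE replicate 1 or any 1 LYL1 library (adjusted p up to 0.104).

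**Figure D1:**
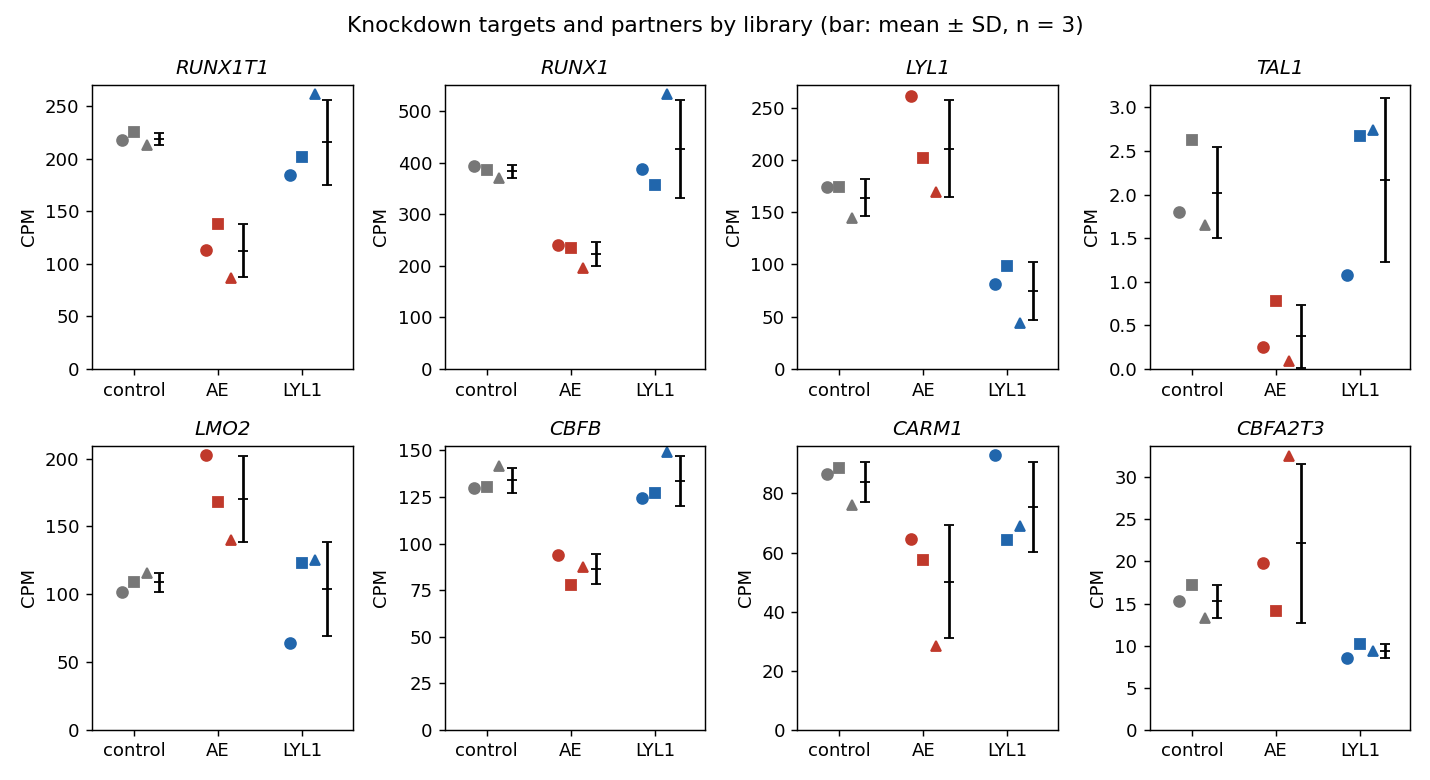
Normalised level (CPM, linear axes from 0) of RUNX1T1, RUNX1, LYL1, TAL1, LMO2, CBFB, CARM1 and CBFA2T3 in every library of the control, AE knockdown and LYL1 knockdown groups. Points are libraries (circle, square and triangle for replicates 1, 2 and 3 or libraries 538, 540 and 542), and bars are mean ± SD of 3 libraries. RUNX1T1 and RUNX1 are lowest in the AE knockdown libraries, and LYL1 and CBFA2T3 in the LYL1 knockdown libraries.

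Of 14349 genes tested, 470 were higher with AE knockdown than with LYL1 knockdown and 471 were lower, at an adjusted p below 0.05 (3.28% and 3.28% of the genes tested, 6.56% together). A difference of at least 2-fold was reached by 369 of the higher genes (2.57%) and 330 of the lower ones (2.3%). The median log2 fold change was 1.41 among the genes called higher, -1.36 among those called lower and 0.02 over all genes tested. The smallest change that was called was 0.61 on the log2 scale. In all 941 called genes the 2 groups of libraries did not overlap, but this was also so for 5105 genes in all, 35.6% of those tested (AE above in 18.2%, AE below in 17.4%). At an unadjusted p below 0.05 there were 4076 genes. Counts of genes in the lists below are to be read against these shares of all genes tested.

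The AE knockdown libraries varied more among themselves than the LYL1 knockdown libraries did, with biological coefficients of variation of 31.2% and 20.6% against 7.52% for the controls. Totals ranged from 20103275 to 28039518 counts. On the first principal component of the 6 libraries (59.5% of the variance) AE replicates 1, 2 and 3 stood at -34.5, -17.3 and -95.8, and the LYL1 libraries between 43.1 and 61.3. AE replicate 3 was the AE library farthest from the LYL1 group in 80.2% of the genes called higher and in 64.8% of those called lower. It also had the highest share of counts from mitochondrial ribosomal RNA, 1.21% against 0.507% to 0.791% in the other 5 libraries, and its part in the results was not tested. The number of calls rested on single libraries. It was 60 higher and 54 lower without AE replicate 1, 811 and 554 without replicate 2, and 313 and 368 without replicate 3. It was 0 and 8 without LYL1 library 538, 5 and 22 without 540, and 0 and 18 without 542, where edgeR still gave 3181, 3352 and 3019 genes at an unadjusted p below 0.05. DESeq2 on all 6 libraries called 1051 and 1107. Of the 99 called genes that the naming rule picks, 25, 93 and 83 were still called without AE replicate 1, 2 and 3, and 4, 9 and 7 without LYL1 library 538, 540 and 542. The 4 that were called in all 6 reduced fits were FLT1, ECM1, DUSP27 and RASGRF1, all lower with AE knockdown. A call of any other gene named below was lost without at least 1 library, LYL1 library 538 in each case, and its size is therefore better read from the values in each library.

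**Figure D2:**
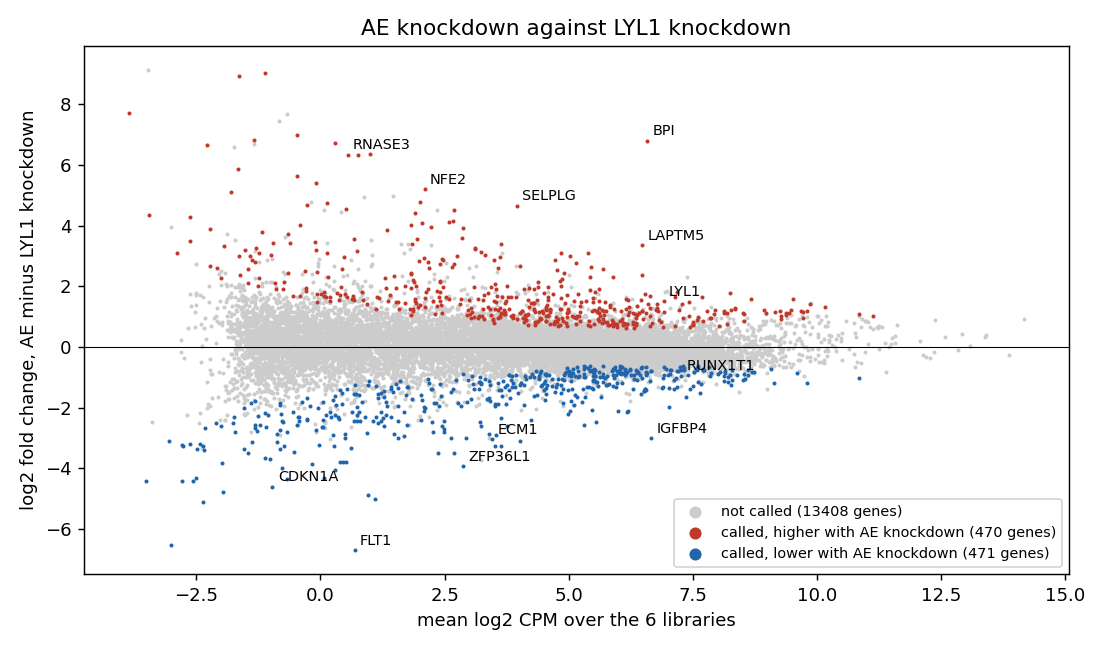
Difference between the knockdowns (log2 fold change, AE minus LYL1) against mean level (log2 CPM over the 6 libraries) for the genes tested. Coloured points are the 470 genes called higher and the 471 called lower, and labels mark some of the genes described in the text.

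Among the other genes listed here with the complex, 1 further gene was called. The list also holds genes not named above as parts of the complex, among them TAL1, CBFB and EP300. TAL1, a basic helix-loop-helix factor closely related to LYL1, was low everywhere, at 0.249, 0.781 and 0.0950 CPM with AE knockdown and 1.08, 2.67 and 2.74 CPM with LYL1 knockdown (log2 fold change -2.43, SE 0.61, edgeR adjusted p = 0.0494; -3.52 without AE replicate 2). Of the 12 listed genes 11 were tested, all but TCF4, which did not pass the low-count filter. Of these, 1 was higher (LYL1) and 3 were lower (RUNX1T1, RUNX1, TAL1). CBFB, the partner subunit of RUNX1, stood at 94.0, 77.8 and 87.2 CPM with AE knockdown and 125, 127 and 149 CPM with LYL1 knockdown and missed the threshold (log2 fold change -0.63, edgeR adjusted p = 0.0528). The acetyltransferase EP300 had a log2 fold change of -0.58 (edgeR adjusted p = 0.0585) and the methyltransferase CARM1 one of -0.59 (edgeR adjusted p = 0.225). CARM1 stood at 64.6, 57.3 and 28.3 CPM with AE knockdown and 93.0, 64.4 and 69.1 CPM with LYL1 knockdown, so that the groups overlapped. Its log2 fold change was -0.31 without AE replicate 3 and -0.41 without LYL1 library 538. LMO2, the adaptor that bridges the DNA-binding members, stood at 203, 168 and 140 CPM with AE knockdown and 63.6, 123 and 125 CPM with LYL1 knockdown (log2 fold change 0.71, edgeR adjusted p = 0.128). The log2 fold changes of TCF3, LDB1 and TCF12 were -0.59, -0.35 and -0.04 (edgeR adjusted p = 0.141, 0.252 and 0.895). Of 16 corepressors and histone deacetylases, which ETO recruits to chromatin, CBFA2T3 was higher and HDAC2 and TBL1X were lower. HDAC2, a class I deacetylase, stood at 227, 207 and 167 CPM against 331, 348 and 393 CPM (log2 fold change -0.84), and TBL1X, a subunit of the NCOR complex, at 32.8, 29.5 and 22.7 CPM against 54.7, 47.7 and 66.4 CPM (log2 fold change -0.99).

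Among called genes whose log2 CPM averaged at least 2, the 15 with the largest positive log2 fold changes ran from CEACAM6 to BPI. Genes of lower average level were not ranked with them. BPI, a bactericidal protein of neutrophil primary granules, stood at 420, 301 and 3598 CPM with AE knockdown against 17.0, 14.6 and 7.02 CPM with LYL1 knockdown and 20.5, 16.8 and 19.1 CPM in the controls (log2 fold change 6.80, SE 1.09, edgeR adjusted p = 0.0232). Its lowest AE library was far above its highest LYL1 library, and without AE replicate 3 the log2 fold change was 4.80. SELPLG, the P-selectin ligand by which leukocytes roll on endothelium, stood at 82.6, 27.7 and 163 CPM with AE knockdown and 3.43, 5.23 and 2.09 CPM with LYL1 knockdown (log2 fold change 4.65, SE 0.66, edgeR adjusted p = 0.0217; 3.92 without AE replicate 3). NFE2, a haematopoietic basic leucine zipper factor, stood at 25.3, 3.58 and 78.2 CPM against 1.12, 0.736 and 1.05 CPM, a log2 difference of 5.20 (SE 1.03, edgeR adjusted p = 0.0328; 3.90 without AE replicate 3). CST7, a cystatin-type protease inhibitor of leukocytes, was carried by AE replicates 1 and 3, at 65.2 and 48.6 CPM, with replicate 2 at 4.97 CPM and the LYL1 libraries at 1.16, 1.82 and 2.19 CPM (log2 fold change 4.53). The tetraspanin CD82 had the same shape, at 50.4, 4.40 and 41.9 CPM against 3.36, 3.02 and 1.44 CPM (log2 fold change 3.61).

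PSTPIP1, an actin-associated adaptor (log2 fold change 4.13), PTAFR, the receptor of platelet-activating factor (4.10), ADAM8, a leukocyte surface metalloprotease (3.96), and PRAM1, a neutrophil adaptor (3.92), were each highest in AE replicate 3. PTAFR, for example, stood at 4.94, 9.62 and 57.2 CPM with AE knockdown and 2.35, 0.930 and 0.797 CPM with LYL1 knockdown. Without AE replicate 3 the 4 log2 fold changes were 2.70, 2.38, 2.67 and 2.89, and without LYL1 library 538 that of PTAFR was 4.76. LAPTM5, a lysosomal membrane protein of haematopoietic cells, stood at 267, 88.0 and 645 CPM against 33.9, 35.3 and 28.0 CPM (log2 fold change 3.36, 2.45 without AE replicate 3). LAT2, a transmembrane adaptor of immune receptors, stood at 36.9, 10.0 and 44.1 CPM against 2.01, 4.88 and 2.64 CPM (log2 fold change 3.25). The phospholipase PLB1 (3.40), the surface glycoprotein CEACAM6 (3.15) and the transcripts AC090559.1 (4.16) and AC097637.3 (3.23) completed the 15, and without AE replicate 3 their log2 fold changes were 2.21, 2.24, 3.15 and 2.23 (AC097637.3 had 3.98 without LYL1 library 542). Of the 15, 5, 15 and 14 were still called without AE replicate 1, 2 and 3, and none without any 1 LYL1 library.

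The 5 genes called higher with the smallest adjusted p were RASGRP2, TESC, ADCY7, TWF2 and CUEDC1. RASGRP2, a guanine nucleotide exchange factor for Rap, stood at 264, 143 and 216 CPM with AE knockdown against 44.4, 41.3 and 34.3 CPM with LYL1 knockdown, with the controls at 70.1, 67.0 and 59.0 CPM, a log2 difference of 2.37 (SE 0.25, edgeR adjusted p = 0.0117). TESC, the calcium-binding protein tescalcin, stood at 73.7, 84.6 and 91.6 CPM against 32.5, 28.6 and 26.0 CPM, a log2 difference of 1.52 (SE 0.17, edgeR adjusted p = 0.0130). In both genes AE replicate 3 lay close to the other AE libraries, and in RASGRP2 replicate 1 was the highest. TWF2, an actin monomer-binding twinfilin, stood at 65.0, 55.4 and 70.6 CPM against 25.7, 21.7 and 21.2 CPM (log2 fold change 1.48). The adenylate cyclase ADCY7 stood at 10.5, 5.22 and 14.8 CPM against 0.849, 0.659 and 0.548 CPM (log2 fold change 3.86). CUEDC1 (4.29) was at or under 1.04 CPM in every library, and its log2 fold change was 5.08 without LYL1 library 538.

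**Figure D3:**
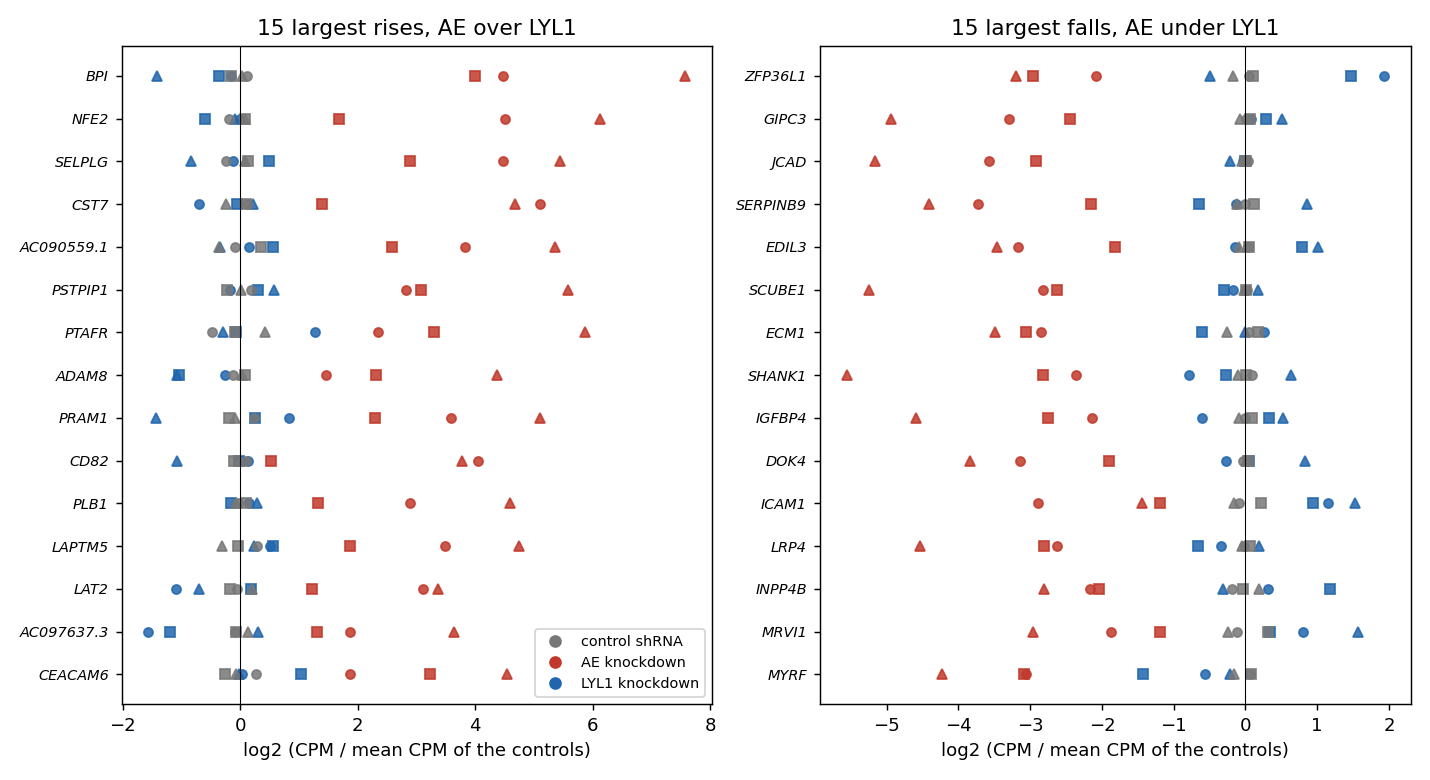
Level in each of the 9 libraries relative to the mean of the controls, as log2 of the CPM ratio, for the 15 genes with the largest differences in each direction among called genes whose log2 CPM averaged at least 2 (left, higher with AE knockdown; right, lower). Colours are groups, and circle, square and triangle are replicates 1, 2 and 3 or libraries 538, 540 and 542. The AE and LYL1 knockdown libraries do not overlap in any of the 30 genes, and AE replicate 3 is the highest AE library for most genes on the left.

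The lists of myeloid genes behaved unevenly. Of 14 genes listed here as primary granule genes, all tested, 5 were higher (BPI, RNASE3, CST7, PLAC8, NKG7) and none was lower. The median log2 fold change was 1.62 (1.02 without AE replicate 3, with 5 called). Not all of the 14 are proteins of neutrophil primary granules. RNASE3, the eosinophil cationic protein, stood at 8.93, 2.95 and 40.7 CPM against 0.154, 0.155 and 0.349 CPM (log2 fold change 6.34, 4.79 without AE replicate 3). PLAC8 stood at 142, 47.4 and 219 CPM against 14.8, 21.3 and 11.9 CPM (log2 fold change 3.08). NKG7, named after its values were seen, stood at 5.01, 1.60 and 20.6 CPM against 0.501, 0.271 and 0.349 CPM (log2 fold change 4.55, 3.12 without AE replicate 3). The abundant granule proteases, also named after their values were seen, were not called: the groups overlapped for ELANE (log2 fold change -0.59, edgeR adjusted p = 0.545), PRTN3 (0.13, 0.877) and AZU1 (0.78, 0.343). MPO, the myeloperoxidase of the same granules, stood at 32315, 16348 and 30151 CPM against 11484, 13648 and 16478 CPM (log2 fold change 0.92, edgeR adjusted p = 0.0983). Of the 5 calls 1, 5 and 5 remained without AE replicate 1, 2 and 3, and 0 without any 1 LYL1 library. RNASE3 had at most 7 counts in any LYL1 library and passed the low-count filter through the AE libraries. The counts and median of this list are therefore not evidence of direction.

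Of 18 monocyte and macrophage genes 8 were tested, all with positive log2 fold changes (median 2.53, 1.22 without AE replicate 3), and 2 were called higher. TYROBP, the signalling adaptor of activating myeloid receptors, stood at 10.3, 3.51 and 72.0 CPM with AE knockdown and 0.579, 0.271 and 0.149 CPM with LYL1 knockdown (log2 fold change 6.35, 4.30 without AE replicate 3 and 7.0 without LYL1 library 538). IRF8, a transcription factor of monocytic development, was low, at 1.49, 0.603 and 4.08 CPM against 0.193, 0.232 and 0.0996 CPM (log2 fold change 3.43, 2.51 without AE replicate 3). S100A8, a calcium-binding alarmin, had the largest value of this list and was not called, at 1.28, 2.95 and 84.0 CPM against 0.154, 0.232 and 0 CPM (edgeR adjusted p = 0.0516). The low-count filter works by group, and IRF8, TYROBP and S100A8 had at most 6, 15 and 6 counts in any LYL1 library. They passed it through the AE libraries, where they are high, so the shared sign and the median of this list are not evidence of direction. The defining monocyte markers CD14 and CD68 did not pass the low-count filter, 5 of the 18 genes had no count in any of the 9 libraries, and the summed level of all 18 was 134, 143 and 746 CPM with AE knockdown, 64.0 to 66.7 CPM with LYL1 knockdown and 42.3 to 44.8 CPM in the controls. The part of this in other differences was not tested. Late granulocyte genes were mostly untested (6 of 15 passed the filter). Of these 6, 5 had positive log2 fold changes and 1 a negative one, with a median of 0.50. The negative one, the only call among them, was FPR2, a formyl peptide receptor. It stood at 3.84, 6.60 and 1.57 CPM with AE knockdown against 12.4, 11.8 and 22.8 CPM with LYL1 knockdown (log2 fold change -1.95). CEBPE, which drives granule formation in late granulocyte precursors, had a log2 fold change of 1.76 and missed the threshold (edgeR adjusted p = 0.0562).

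Of 6 subunits and activators of the NADPH oxidase, the enzyme of the phagocyte oxidative burst, 5 were tested, and none was lower (median log2 fold change 1.14). CYBA, a membrane subunit, stood at 365, 373 and 575 CPM against 196, 210 and 192 CPM, a log2 difference of 1.14 (SE 0.21, edgeR adjusted p = 0.0295). The LYL1 knockdown values of CYBA lay within the range of the controls, 190 to 211 CPM. The small GTPase RAC2 was also higher, at 390, 279 and 474 CPM against 172, 160 and 162 CPM (log2 fold change 1.21). CYBB, the catalytic membrane subunit, did not pass the low-count filter.

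Of 14 tested adaptors and kinases of immune receptor signalling 7 were higher and none was lower (median 1.30, with 6 of the 7 still called without AE replicate 3 and 1 without AE replicate 1). FGR and TYROBP, with at most 3 and 15 counts in any LYL1 library, passed the low-count filter through the AE libraries. The counts and median of this list are therefore not evidence of direction. FGR, a Src-family kinase, stood at 2.99, 1.17 and 21.6 CPM against 0.116, 0.0775 and 0 CPM (log2 fold change 6.83, 4.81 without AE replicate 3 and 7.44 without LYL1 library 538). The phosphatase PTPN6 (SHP-1) was more even, at 282, 214 and 293 CPM against 140, 88.7 and 66.5 CPM (log2 fold change 1.42). HCST, an adaptor of activating receptors that was named after its values were seen, stood at 7.79, 4.86 and 65.5 CPM against 2.12, 0.852 and 0.598 CPM (log2 fold change 4.41, 2.37 without AE replicate 3). The lipid kinase subunit PIK3CD, likewise, stood at 149, 140 and 162 CPM against 102, 92.5 and 92.8 CPM (log2 fold change 0.65). Of 20 tested genes of leukocyte adhesion and migration 4 were higher and 2 lower. ICAM3, named after its values were seen, stood at 12.2, 21.3 and 77.1 CPM against 5.01, 7.13 and 2.94 CPM (log2 fold change 2.86, 1.72 without AE replicate 3), and the actin regulator CORO1A, likewise, had a log2 fold change of 1.08. ICAM1 and CD44, in contrast, were lower with AE knockdown. ICAM1, an integrin ligand, stood at 1.96, 6.35 and 5.32 CPM against 32.2, 27.7 and 41.7 CPM, and the controls lay between the knockdowns, at 13.7, 16.8 and 12.9 CPM, a log2 difference of -2.90 (SE 0.39, edgeR adjusted p = 0.0195). CD44, the hyaluronan receptor, stood at 236, 196 and 168 CPM against 481, 497 and 363 CPM (log2 fold change -1.16).

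Among 16 tested cytokine receptors IL6R was higher and IL2RG lower with AE knockdown. IL6R stood at 19.0, 3.94 and 63.6 CPM with AE knockdown and 0.579, 1.63 and 0.896 CPM with LYL1 knockdown (log2 fold change 4.78, 3.46 without AE replicate 3). IL2RG, the common gamma chain, stood at 92.0, 67.7 and 71.4 CPM against 161, 187 and 225 CPM (log2 fold change -1.31). Receptors of the same class thus lay on both sides.

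In the other direction, FLT1, a tyrosine kinase receptor for VEGF, stood at 0.0356, 0.568 and 0.0475 CPM with AE knockdown against 23.0, 23.3 and 26.8 CPM with LYL1 knockdown, and at 22.3, 29.2 and 26.2 CPM in the controls (log2 fold change -6.69, SE 0.55, edgeR adjusted p = 0.00865). Its LYL1 knockdown libraries lay in the range of the controls, and the value was -9.05 without AE replicate 2. ECM1, an extracellular matrix protein, stood at 4.69, 4.05 and 2.99 CPM against 40.4, 22.3 and 33.7 CPM, a log2 difference of -3.03 (SE 0.29, edgeR adjusted p = 0.00865). JCAD, a protein of endothelial cell junctions, stood at 2.13, 3.37 and 0.712 CPM against 24.8, 25.4 and 22.0 CPM (log2 fold change -3.50). SCUBE1, a secreted and membrane glycoprotein, stood at 8.18, 9.40 and 1.52 CPM against 51.4, 47.2 and 65.1 CPM (log2 fold change -3.08). These 4 are the called members of the endothelial-type list, in which 9 of 16 genes were tested, all with negative log2 fold changes (median -3.03), and of which 4, 2, 2 and 2 were called without AE replicate 3 and without LYL1 library 538, 540 and 542. The defining endothelial genes KDR, CDH5 and TEK did not pass the low-count filter, and 4 of the 16 genes had no count in any of the 9 libraries. The list was chosen with earlier results of these data known, and its median is the value of ECM1. FLT1, at 1, 16 and 1 counts with AE knockdown, passed the filter through the LYL1 libraries. The shared sign is therefore not independent evidence of direction.

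The 15 largest differences in this direction, among genes whose log2 CPM averaged at least 2, were led by ZFP36L1, an RNA-binding protein that speeds mRNA decay, at 3.20, 1.74 and 1.47 CPM against 51.5, 37.4 and 9.66 CPM, a log2 difference of -3.93 (SE 0.62, edgeR adjusted p = 0.0232). Its controls (12.1 to 14.6 CPM) lay between AE knockdown and LYL1 libraries 538 and 540, and above library 542. IGFBP4, which binds insulin-like growth factors, stood at 67.1, 43.9 and 12.3 CPM against 195, 370 and 426 CPM (log2 fold change -3.01). SERPINB9, the inhibitor of granzyme B, stood at 2.81, 8.38 and 1.76 CPM against 33.9, 23.8 and 67.8 CPM (log2 fold change -3.26, -4.17 without AE replicate 2). The matrix protein EDIL3 (-3.25), the scaffold SHANK1 (-3.01), the receptor LRP4 (-2.86), the lipid phosphatase INPP4B (-2.81) and the transcription factor MYRF (-2.69) belonged to the same 15, as did GIPC3 (-3.50), DOK4 (-2.99) and MRVI1 (-2.79). Without AE replicate 2 the values of EDIL3, GIPC3 and DOK4 were -3.93, -4.14 and -3.70. Of the 15, 6, 15 and 15 were still called without AE replicate 1, 2 and 3, and 1, 2 and 3 without LYL1 library 538, 540 and 542. Among the 5 lower genes with the smallest adjusted p, besides FLT1 and ECM1, were DUSP27 (-5.01) and RASGRF1, a Ras exchange factor (-5.11, -5.89 without AE replicate 1), both with an edgeR adjusted p of 0.00865, and the long noncoding RNA SENCR (-2.88, edgeR adjusted p = 0.0115). SENCR is transcribed antisense to FLI1, and because the strand setting of the counting is not given in the sources used here, its reads cannot be told apart from those of FLI1.

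Genes of stem and progenitor cells were lower or not called. Of 14 tested, none was higher and 3 were lower (median log2 fold change -0.48). ERG, an ETS factor of haematopoietic stem cells, stood at 89.8, 129 and 64.9 CPM against 213, 230 and 263 CPM, with controls at 214 to 221 CPM, a log2 difference of -1.31 (SE 0.25, edgeR adjusted p = 0.0300). GATA2, a zinc finger factor of stem cells and mast cells, stood at 31.5, 47.9 and 29.2 CPM against 103, 80.0 and 74.9 CPM (log2 fold change -1.25). ANGPT1, a ligand of the TIE2 receptor, stood at 2.74, 3.69 and 1.09 CPM against 17.2, 22.9 and 6.23 CPM (log2 fold change -2.60). CD34 and KIT, named after their values were seen, were not called. CD34 spread widely in both groups, at 1.14, 19.9 and 4.13 CPM against 53.5, 22.1 and 9.96 CPM (log2 fold change -1.76, edgeR adjusted p = 0.247), and KIT had a log2 fold change of -0.08. ERG and GATA2 were no longer called without AE replicate 1 or any 1 LYL1 library.

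Of 5 tested mast cell and basophil genes 3 were lower, GATA2 and the tryptases TPSAB1 and TPSB2. TPSAB1 stood at 0.249, 0.248 and 0.380 CPM against 0.926, 1.16 and 1.20 CPM, but the 2 tryptase genes are near-identical and how reads were split between them is uncertain. Among the 4 tested megakaryocyte and platelet genes 1 was called higher, NFE2, and 1 lower. Their log2 fold changes were positive in 1 and negative in 3 (median -0.23). Of 7 tested lymphoid genes CD3D was lower, at 0.249, 0.497 and 0.617 CPM against 1.74, 1.74 and 5.08 CPM (log2 fold change -2.64, -1.96 without LYL1 library 542). With any 1 library left out CD3D was not called. The 7 log2 fold changes were negative in 4 genes and positive in 3, up to 1.07. Erythroid genes were nearly absent, with GATA1 and all listed globin genes below the filter, and none of the 3 tested (TFRC, EPOR, KLF1) was called by edgeR or DESeq2 or had an unadjusted p below 0.05. Among 13 genes of red cells, plasma and fibroblasts, chosen to show RNA of other cell types, only EPCAM passed the filter and was not called, and the summed level of all 13 was 0.697 to 1.57 CPM in the 9 libraries.

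For 12 genes that have been described as repressed by AE, 7 were higher with AE knockdown than with LYL1 knockdown, 1 was lower (NF1) and the median log2 fold change was 2.15 (1.59 without AE replicate 3, where 5 were higher). SPI1 (PU.1), a master factor of myeloid differentiation that was named after its values were seen, stood at 261, 218 and 361 CPM against 166, 142 and 118 CPM, a log2 difference of 0.98 (SE 0.23, edgeR adjusted p = 0.0416). RASSF2, a Ras-association domain protein, stood at 60.2, 40.2 and 112 CPM against 17.4, 7.36 and 11.4 CPM (log2 fold change 2.55). IGFBP7, also named after its values were seen, had a log2 fold change of 2.78. Of 9 tested genes described as raised by AE none was higher and 2 were lower (median -0.64). POU4F1, a transcription factor expressed in t(8;21) leukaemia, stood at 25.3, 22.9 and 25.4 CPM against 46.2, 42.4 and 39.0 CPM, a log2 difference of -0.80 (SE 0.16, edgeR adjusted p = 0.0328). CDKN1A, the cell cycle inhibitor p21, stood at 0.0711, 0.497 and 0 CPM against 5.32, 2.21 and 7.82 CPM (log2 fold change -4.60, -6.79 without AE replicate 2). The controls of CDKN1A stood at 1.56 to 2.47 CPM, above the AE knockdown libraries and overlapping LYL1 library 540. It was also the only one of 20 tested p53 targets that was called, 5.0% against 3.28% of all genes tested called lower. Because these lists were chosen with results of these samples known, their counts are not independent evidence of direction.

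**Figure D4:**
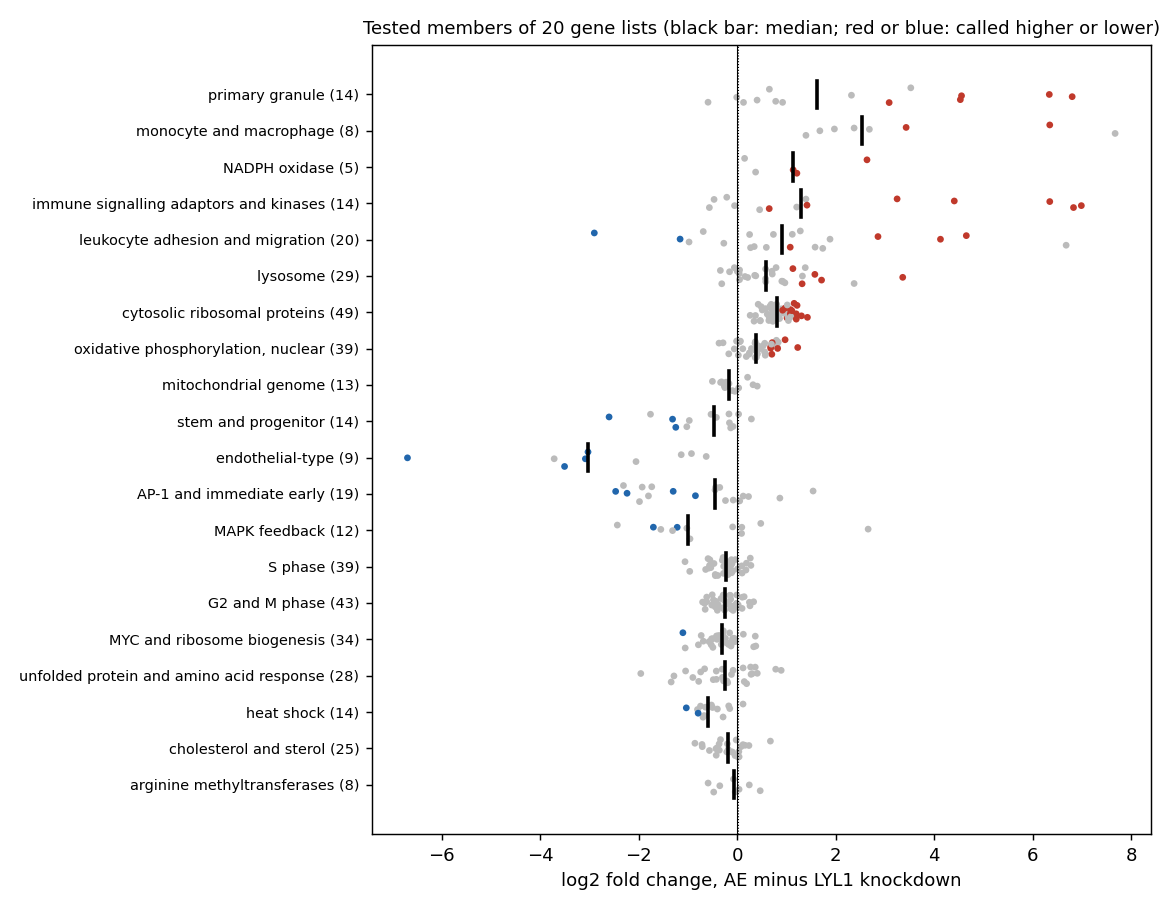
Log2 fold change (AE minus LYL1 knockdown) of the tested members of 20 gene lists, with the number tested in brackets. Each point is a gene, red where called higher, blue where called lower and grey where not called, and the black bar is the list's median. Monocyte and NADPH oxidase genes lie entirely to the right of 0, endothelial-type genes entirely to the left, and S phase and G2 and M phase genes close to 0 with none called.

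Transcription factors of the AP-1 family and other immediate early genes, which respond within minutes to growth factor signals, were lower where edgeR called them. Of 19 tested, 4 were lower, none was higher and the median was -0.45. Of the 19 log2 fold changes 14 were negative and 5 positive, up to 1.54. FOSL2 stood at 25.7, 39.0 and 28.6 CPM against 80.0, 74.3 and 75.2 CPM, a log2 difference of -1.30 (SE 0.19, edgeR adjusted p = 0.0217). FOSL1 stood at 2.53, 2.41 and 1.33 CPM against 11.4, 7.21 and 16.6 CPM (log2 fold change -2.47), and FOS at 0.569, 0.568 and 0.570 CPM against 2.93, 1.78 and 3.44 CPM (log2 fold change -2.24). ZFP36, a paralog of ZFP36L1, had a log2 fold change of -0.85. All 4 were still called without AE replicate 2 or 3, none without AE replicate 1, and 0, 1 and 0 without LYL1 library 538, 540 and 542. Of 12 tested feedback genes of MAP kinase signalling DUSP1 (-1.22) and SPRED1 (-1.70) were lower, and the median was -0.99. Of the 12 log2 fold changes 8 were negative and 4 positive, up to 2.66. Among NF-kB targets the chemokines CXCL2 (-1.99) and CXCL3 (-2.74, -3.49 without AE replicate 2) were lower with ICAM1, and TRAF1 was higher (3.43, 2.44 without AE replicate 3), all 3 at or below 5.13 CPM in these 6 libraries. Of 16 tested interferon-stimulated genes IFITM1 was higher (1.37) and IFITM3 lower (-1.42), 6.25% in each direction against 3.28% of all genes tested. CD74, the invariant chain of MHC class II, was higher at 98.0, 92.0 and 211 CPM against 66.2, 39.2 and 32.5 CPM (log2 fold change 1.54, edgeR adjusted p = 0.0496), while all classical class II genes listed were below the filter.

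Of 49 tested cytosolic ribosomal protein genes 13 were called higher with AE knockdown and none lower, all 49 log2 fold changes were positive, and the median was 0.80 (0.53 without AE replicate 3, where 13 were called). RPS19 stood at 876, 945 and 1285 CPM against 524, 499 and 417 CPM, with controls at 516 to 543 CPM, a log2 difference of 1.11 (SE 0.21, edgeR adjusted p = 0.0300). RPL13 and RPS28 had log2 fold changes of 1.22 and 1.20. The share of all counts from genes of this kind was 7.66%, 7.71% and 11.6% in AE replicates 1, 2 and 3 and 5.79%, 5.73% and 4.46% in the LYL1 libraries. These genes have many near-identical pseudogene copies, so their counts are uncertain. With a correction for transcript length and GC content 11 were called and the median was 0.74. None of the 13 was called without AE replicate 1 or without any 1 LYL1 library.

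Nuclear genes of oxidative phosphorylation lay in the same direction with smaller values. Of 39 tested, 7 were higher and none was lower (median 0.39), and 3 of the 7 were called without AE replicate 3. NDUFA4, a subunit of the respiratory chain, stood at 171, 242 and 261 CPM against 119, 131 and 93.6 CPM (log2 fold change 0.97). SDHD, COX7C and UQCRC1 had log2 fold changes of 1.23, 0.82 and 0.70. Of the 13 protein-coding genes of the mitochondrial genome edgeR and DESeq2 called 0, and 0 had an unadjusted p below 0.05 (median -0.17). Lysosomal genes were higher in 5 of 29 tested (LAPTM5, GLA, NPC2, PSAP, ATP6V0D1), with none lower and a median of 0.58 (0.34 without AE replicate 3). PSAP, the precursor of the saposins, stood at 1125, 801 and 2057 CPM against 404, 481 and 450 CPM (log2 fold change 1.58), and NPC2, a cholesterol carrier of lysosomes, at 45.4, 35.8 and 96.9 CPM against 17.4, 18.1 and 18.8 CPM (log2 fold change 1.71).

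Genes of proliferation were not called by edgeR. None of 39 S phase genes and none of 43 tested G2 and M phase genes passed the threshold in either direction by edgeR, with medians of -0.22 and -0.26. The log2 fold changes were negative in 32 of the 39 and in 36 of the 43. At an unadjusted p below 0.05 there were 4 and 7 genes, against 4076 of all 14349 tested, and DESeq2 called 3 and 3. The S phase median was -0.01 without AE replicate 3, the library in which the summed level of these genes was lowest (3380 CPM against 5159 and 6142 CPM in AE replicates 1 and 2, and 5652 to 5686 CPM with LYL1 knockdown). Of 34 MYC and ribosome biogenesis genes only NOLC1, a nucleolar phosphoprotein, was called, at 248, 226 and 169 CPM against 503, 438 and 440 CPM (log2 fold change -1.10). That is 2.94% of the list, against 3.28% of all genes tested called lower. Of 23 tested glycolysis and hypoxia genes 3 were lower. SLC2A3, the glucose transporter GLUT3, stood at 7.47, 35.1 and 11.4 CPM against 112, 103 and 110 CPM, with controls at 90.0 to 99.5 CPM (log2 fold change -2.58, -3.52 without AE replicate 2), and HK1, a hexokinase, had a log2 fold change of -1.27. Of 15 tested genes of the BCL2 family BCL2L1 (BCL-XL) was lower, at 25.8, 27.9 and 22.6 CPM against 44.9, 52.8 and 41.6 CPM (log2 fold change -0.87). This 1 call is 6.67% of the list, against 3.28% of all genes tested called lower. The heat shock genes HSPB1 (-1.03) and CHORDC1 (-0.79) were lower and neither was called without AE replicate 3. EdgeR called no gene among 28 of the unfolded protein and amino acid response, 25 of sterol synthesis, 8 arginine methyltransferases and 14 common reference genes, whose medians were -0.24, -0.18, -0.06 and 0.22. In these 4 lists 4, 4, 1 and 2 genes had an unadjusted p below 0.05, and DESeq2 called 1, 2, 0 and 1.

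The control libraries showed on which side of the comparison a gene departed from its level under a control shRNA. In 447 of the 470 genes called higher (95.1%) and in 456 of the 471 called lower (96.8%) the control mean was nearer to the LYL1 knockdown mean than to the AE knockdown mean. The range of the 3 controls overlapped that of the LYL1 knockdown only in 349 and 349 genes, that of the AE knockdown only in 8 and 10, both in 2 and 3, and neither in 111 and 109. These counts describe genes selected on the same AE and LYL1 values, and no test was made of them. With 0 for the LYL1 mean and 1 for the AE mean, the median position of the control mean was 0.113 among the higher genes and 0.0462 among the lower ones.

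**Figure D5:**
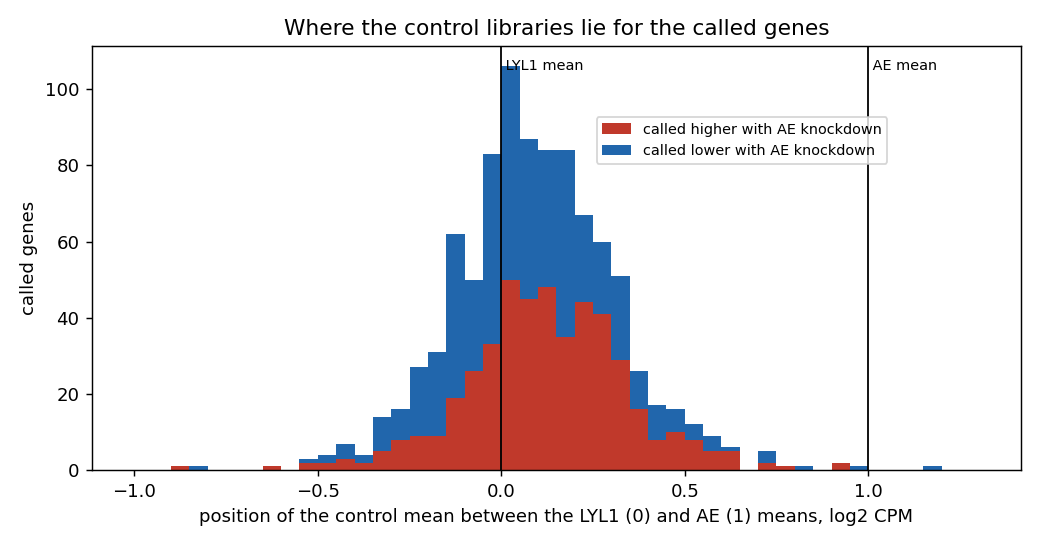
Position of the control mean between the LYL1 knockdown mean (0) and the AE knockdown mean (1) on the log2 scale, for the genes called higher and lower. Bars count genes per bin of 0.05, and most lie near 0. 1 gene lies below -1 and is not drawn.

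The control mean was nearer to the AE side in 23 of the genes called higher and 15 of those called lower, of which 10 and 6 had an average log2 CPM of 2 or more. Apart from LYL1 and CBFA2T3 the genes described here were chosen after their values were seen. CBFA2T3 (ETO2), a corepressor of the same family as ETO, stood at 8.56, 10.2 and 9.41 CPM with LYL1 knockdown, below the controls at 15.3, 17.2 and 13.2 CPM, and at 19.8, 14.1 and 32.6 CPM with AE knockdown (log2 fold change 1.24, SE 0.30, edgeR adjusted p = 0.0474). GNA15, a G protein alpha subunit of haematopoietic cells, departed from the controls (26.3 to 29.8 CPM) on both sides, at 11.6, 23.5 and 7.77 CPM with LYL1 knockdown and 77.0, 45.2 and 71.9 CPM with AE knockdown (log2 fold change 2.17, SE 0.40, edgeR adjusted p = 0.0293). IMPA2, an inositol monophosphatase, stood at 54.1, 63.8 and 58.1 CPM with LYL1 knockdown, 84.5 to 89.1 CPM in the controls and 94.0, 119 and 149 CPM with AE knockdown (log2 fold change 1.04). TSTA3, an enzyme of GDP-fucose synthesis, varied little within groups, at 47.6, 52.6 and 41.1 CPM with LYL1 knockdown and 81.4, 78.5 and 77.4 CPM with AE knockdown, with controls at 65.1 to 71.9 CPM (log2 fold change 0.75). In the other direction PPP1R15A (GADD34), a stress-induced phosphatase subunit, stood at 51.5, 38.6 and 42.1 CPM with LYL1 knockdown, above controls at 30.1 to 36.1 CPM, and at 30.1, 20.7 and 22.2 CPM with AE knockdown (log2 fold change -0.86). AKT1S1 (PRAS40), an mTORC1 component, stood at 142, 83.2 and 145 CPM with LYL1 knockdown against 68.4 to 72.9 CPM in the controls and 71.1, 62.9 and 41.7 CPM with AE knockdown (log2 fold change -1.08). Of these 16 genes 1, 9 and 7 were still called without AE replicate 1, 2 and 3, and 0, 1 and 0 without LYL1 library 538, 540 and 542.

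The promoters of 4 genes are printed below, a pair of genes from the largest rises and a pair from the largest falls. They were picked because they hold letters searched for as motifs of RUNX or AP-1 factors, families with genes that were called. Of the 15 largest rises 7 had a promoter entry, and of these 1 held the RUNX letters and 2 the AP-1 letters. Of the 15 largest falls 9 had an entry, and 2 held the RUNX letters and 2 the AP-1 letters. The printed stretches are the 250 bases before the annotated start of CEACAM6 (chr19:41755280-41755529, + strand), PTAFR (chr1:28193857-28194106, - strand), JCAD (chr10:30115495-30115744, - strand) and ECM1 (chr1:150507859-150508108, + strand), from RefSeq on GRCh38.p14, whereas the deposited counts were made on hg19. Each is written 5′ to 3′ on the strand of its gene, with capitals for TGTGGT or TGCGGT (RUNX) and TGANTCA (AP-1) on either strand.
CEACAM6: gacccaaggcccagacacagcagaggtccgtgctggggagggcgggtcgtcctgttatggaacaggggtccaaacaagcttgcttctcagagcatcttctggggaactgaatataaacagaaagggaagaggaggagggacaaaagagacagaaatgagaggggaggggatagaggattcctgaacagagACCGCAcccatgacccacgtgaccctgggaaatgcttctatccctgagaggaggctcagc
PTAFR: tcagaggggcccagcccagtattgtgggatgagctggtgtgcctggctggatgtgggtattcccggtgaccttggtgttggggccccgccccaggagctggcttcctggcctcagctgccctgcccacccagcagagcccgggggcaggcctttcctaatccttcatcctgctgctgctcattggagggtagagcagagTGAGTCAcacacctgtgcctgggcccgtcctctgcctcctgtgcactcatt
JCAD: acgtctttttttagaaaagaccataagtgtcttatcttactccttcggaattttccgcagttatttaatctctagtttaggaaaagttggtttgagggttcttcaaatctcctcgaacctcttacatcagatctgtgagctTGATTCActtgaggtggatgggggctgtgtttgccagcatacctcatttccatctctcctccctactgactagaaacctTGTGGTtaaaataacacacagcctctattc
ECM1: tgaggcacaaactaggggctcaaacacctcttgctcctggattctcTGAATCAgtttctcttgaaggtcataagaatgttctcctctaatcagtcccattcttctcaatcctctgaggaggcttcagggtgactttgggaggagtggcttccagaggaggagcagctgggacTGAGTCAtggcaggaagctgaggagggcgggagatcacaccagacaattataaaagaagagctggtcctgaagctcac
CEACAM6 holds 1 RUNX match, PTAFR 1 AP-1 match, JCAD 1 of each and ECM1 2 AP-1 matches, and the motifs do not overlap one another. The RUNX letters are common and the AP-1 letters less so, although TGANTCA takes any base at N. The AP-1 match in JCAD has T there, and those in ECM1 have A and G. Of 9696 tested genes with a promoter entry, 15.4% held the RUNX letters, against 19.3% of 311 called higher and 14.6% of 314 called lower. The AP-1 letters were in 3.61% of all, 5.47% of the higher and 7.96% of the lower genes, and the E-box CAGNTG, of the kind bound by LYL1 and E proteins, in 35.8%, 41.8% and 31.8%. These shares are descriptions without a test, the GC content of transcripts differed between the sets (median 49.4% for all tested genes with a value, 54.7% higher, 51.3% lower), and a match does not show binding.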

How the data were processed

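The files hold whole-number read counts per gene symbol, 59648 genes in each, deposited by the authors without normalisation. The submitters' processing notes name the genome build hg19 and the tools featureCounts 2.0.1, HISAT2 2.2.0, fastp 0.20.1, DESeq2 1.26.0 and SAMtools 1.7, without saying what each was used for. The annotation, strand setting and treatment of multi-mapping reads are not given in the sources used here. Of gene names carrying a decimal suffix there were 5 in each control and AE file and 0 in the LYL1 files, so this difference between files cannot be told apart from the groups.

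Counts of the 6 knockdown libraries (totals 20103275 to 28039518) were filtered with filterByExpr by group, scaled by TMM and compared in edgeR 4.0.16 under R 4.3.3 with its robust quasi-likelihood test on group means, with Benjamini-Hochberg adjustment over 14349 genes and a threshold of 0.05. Fold changes use a prior count of 0.125, and CPM of the control libraries were put on the same scale. Log2 fold changes had a median standard error of 0.26. On simulated counts edgeR called 0 of 65 genes changed 1.5-fold, 16 of 76 changed 2-fold and 38 of 59 changed 4-fold. It also called 7 of 14149 unchanged genes. A gene that was not called may therefore still differ.

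Named are the genes listed with the complex, the 15 largest changes per direction among called genes whose groups do not overlap and whose log2 CPM averages at least 2, the 5 smallest adjusted p per direction, and by adjusted p up to 4 members of each list. Other genes are said to be chosen after their values were seen. The members and the 38 lists (730 genes, 596 tested, from textbook knowledge) were chosen with earlier results of these data known. The alternatives were other scalings, low-count filters, DESeq2 1.42.0, limma-voom (limma 3.58.1), other edgeR settings, the controls in the fit, other thresholds and leaving out each library. A correction for transcript length and GC content (mgcv 1.9.3, 13911 genes with values) and the lists without AE replicate 3 were added after seeing the data. Promoters are from RefSeq (GRCh38.p14). A few genes of the lists are not reported here.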

Additional observations from a re-analysis of the deposited data

How the results depend on the processing

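The counts of 470 genes higher and 471 lower were 1051 and 1107 with DESeq2 and 1573 and 1430 with the controls in the fit, 294 higher with limma-voom, and 0 and 4 at an adjusted p below 0.01. Leaving out 1 library gave 0 to 811 higher and 8 to 554 lower genes. The other scalings, filters and tests stayed within 1.5 times of both counts, and the cause of the changes was not tested, except that the leave-outs use fewer samples. With 1 library left out, the log2 fold change lay between -1.11 and -0.78 for RUNX1T1 and between 1.23 and 1.75 for LYL1. Of the 99 called named genes, 70 were called with no low-count filter, 78 with limma-voom and 83 with the strict filter of 50 counts in 3 libraries. Log2 fold changes that reversed belong to uncalled genes near 0. EPOR was at 0.026 with upper-quartile scaling, 0.0051 with the strict filter and 0.034 with the length and GC correction. With 1 library left out the values lay between -0.10 and 0.11 for EPOR, -0.42 and 0.41 for GP1BA, -0.80 and 0.033 for ITGA2B, -0.13 and 0.48 for KLF1, and -0.13 and 0.055 for TCF12. The medians of glycolysis genes (0.02) and arginine methyltransferases (0.06) turned positive without AE replicate 3. No paired analysis was possible because the AE numbers 1 to 3 and the LYL1 numbers 538, 540 and 542 share no number. With 3 libraries a group and this spread, differences under 0.61 on the log2 scale were not called.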
